A study of Mus musculus with 8 samples.

Results

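The genes of glycosaminoglycan synthesis and sulfation were followed in articular cartilage of Oscar-/- (KO) and wild-type (WT) mice after surgical injury of the knee. The set holds 38 genes, listed by name from the linker, chondroitin and dermatan sulfate, heparan sulfate and hyaluronan pathways and from sulfate supply, among 52636 genes in the deposited tables. Each was found by its mouse Ensembl identifier. Of the 38 genes, 35 were among the 12538 protein-coding genes with a TPM (transcript abundance per length, scaled to a fixed total in each library) above 1 in at least 1 library and were tested.

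Glycosaminoglycans are long sugar chains built in the Golgi apparatus. Chondroitin, dermatan and heparan sulfate chains are started on serines of a core protein through a shared linker of xylose, galactose and glucuronic acid, then lengthened and sulfated, with PAPS as the sulfate donor. Hyaluronan has no core protein and no sulfate and is made at the plasma membrane. In cartilage, the dense negative charge of the chondroitin sulfate chains on aggrecan holds water and resists compression, and in mice and humans loss of several of these enzymes, or of the sulfate transporter Slc26a2, disturbs skeletal growth.

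The experiment compared KO mice after destabilization of the medial meniscus (DMM), KO mice after sham surgery, WT mice after DMM and WT mice after sham surgery, each at 2 and at 4 weeks. DMM loosens the meniscus and leads to osteoarthritis, whereas sham surgery serves as its control. All mice were males of the C57BL/6 strain labelled as 10 weeks old, WT mice as C57BL/6J, and the KO mice were Oscar-/-, with no cell type or Cre driver named for the deletion. Oscar encodes the osteoclast-associated receptor, which binds collagen. Each of the 8 libraries was made from a combination of 10 articular cartilages of the knee, with 1 library for each combination of genotype, surgery and week, so no condition had a second library. The tests below therefore take their error from what is left after 4 genotype by surgery levels and a term for week, and their p-values measure that spread alone. The comparisons also share libraries with each other and are not independent.

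Total expected counts were 13189181 to 18533609 per library. Oscar had 0 counts in all 4 KO libraries, which allows up to 3 counts each, against 42 to 118 counts in WT. Chondrocyte markers were present in every library, with Col2a1 at 59.5 to 209 TPM and Acan at 19.3 to 68.9 TPM. The 4 adult hemoglobin genes took 26.5% to 37.7% of all TPM and 10 neutrophil markers 6.77% to 11.0%, against 0.144% to 0.472% for 18 chondrocyte markers, of which Matn1 did not exceed 0.44 TPM. The 12 osteoblast and osteocyte markers took 0.286% to 0.523%, more than the chondrocyte markers in every library. Fewer cells of a type and less RNA per cell cannot be told apart in such pooled tissue. Because TPM sums to a fixed total, the hemoglobin share moves the TPM of all other genes, and therefore values scaled by TMM (trimmed mean of M values, a factor per library that sets most genes to no change) stand beside TPM. The file names place the 2-week libraries in sequencing lane 5 and, at 4 weeks, KO in lane 1 and WT in lane 3, so week and lane cannot be told apart, and neither can genotype and lane at 4 weeks, which touches every comparison of KO with WT.

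The 38 genes together accounted for 0.0240% to 0.0376% of TPM. Their summed TPM was 269 and 293 in KO DMM at 2 and 4 weeks, 313 and 357 in KO sham, 308 and 376 in WT DMM, and 240 and 356 in WT sham. In KO the DMM sum was the lower at both weeks, and in WT the DMM sum was the higher at both. On TMM-scaled CPM (counts scaled to library size) the sums lay closer together, at 1058 and 1054 in KO DMM, 1213 and 1160 in KO sham, 1122 and 1133 in WT DMM, and 1067 and 1104 in WT sham. That order between DMM and sham within each genotype was the same on both scales. The WT sham library at 2 weeks, which had the highest hemoglobin share at 37.7%, held the lowest TPM of 27 of the 35 tested genes, but on TMM-scaled CPM the lowest value of only 7 of them.

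**Figure D1:**
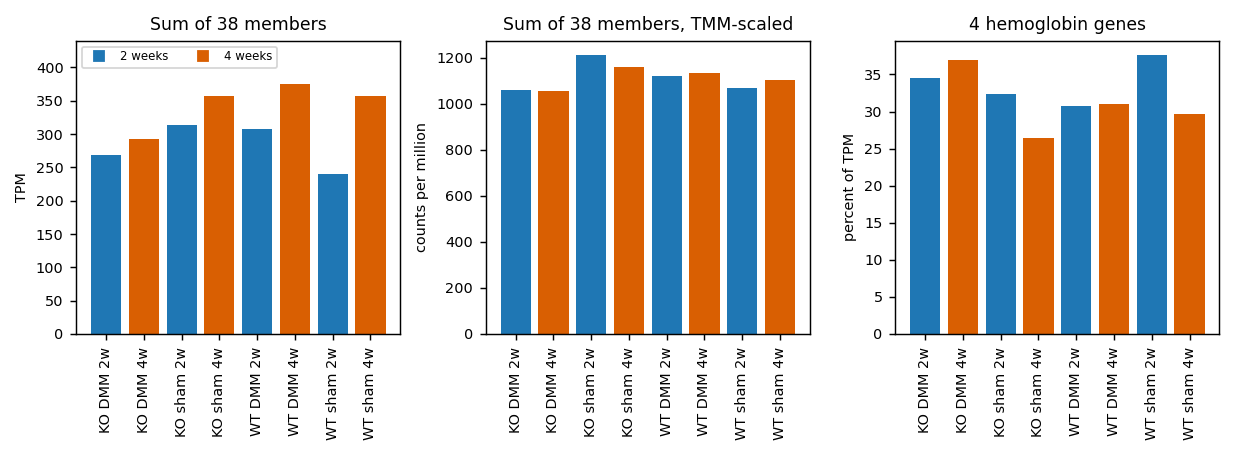
Summed level of the 38 genes in each library as TPM (left) and as TMM-scaled CPM (middle), and the share of TPM taken by 4 hemoglobin genes in percent (right), with blue bars for 2 weeks and orange bars for 4 weeks and 1 library per bar. The KO DMM bars (269 and 293 TPM) lie below the KO sham bars (313 and 357 TPM), and the WT DMM bars lie above the WT sham bars of the same week.

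Chst11 was the only one of the 35 tested genes that passed the test for a difference in response to DMM between KO and WT. It encodes chondroitin 4-O-sulfotransferase 1, which adds sulfate to the 4 position of N-acetylgalactosamine in chondroitin and is needed in mice for an ordered growth plate. The gene (ENSMUSG00000034612) lies on the plus strand of chromosome 10 of GRCm38 from 82985498 to 83195900. Chst11 stood at 7.31 and 8.33 TPM in KO DMM at 2 and 4 weeks, 11.6 and 11.4 TPM in KO sham, 9.97 and 12.8 TPM in WT DMM, and 6.75 and 11.0 TPM in WT sham. Thus Chst11 was lower after DMM than after sham surgery in KO at both weeks and higher in WT at both. On TMM-scaled CPM the KO DMM libraries, at 50.2 and 51.8, were the lowest of all 8, and the other 6 lay between 54.2 and 76.8. The log2 response in KO minus that in WT was -0.65 (SE 0.15, adjusted p = 0.0326). The 2 responses behind it were -0.47 (SE 0.10, adjusted p = 0.0994) in KO and 0.18 (SE 0.10, adjusted p = 0.338) in WT, neither past the threshold of 0.05.

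Each fit that left out 1 library kept only 1 library in a genotype by surgery level. In those that lost the Chst11 call, fewer of all genes were called as well. The call was thus not stable to single libraries. It was lost in 6 of the 8 fits that left out 1 library, namely without KO DMM or KO sham at 2 weeks, KO DMM at 4 weeks, WT DMM at either week or WT sham at 2 weeks. The adjusted p in these 6 fits was 0.0631 to 0.172. The value stayed below 0 in all 15 alternatives, between -0.86 and -0.47, with an adjusted p of 0.00158 to 0.351.

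The promoter sequences of 2 genes are printed because Chst11 passed that test and because Papss2, which makes the sulfate donor for it, belonged with it to the 5 genes selected on both scales by the criteria of the study. Both windows are the 250 bases before a RefSeq gene start on the plus strand of GRCm38.p6, chr10:82985247-82985496 for Chst11 and chr19:32595465-32595714 for the first of the starts listed for Papss2, with the letters GGGCGG (a GC box, the kind of site bound by Sp1) or their reverse complement in capitals.
Chst11: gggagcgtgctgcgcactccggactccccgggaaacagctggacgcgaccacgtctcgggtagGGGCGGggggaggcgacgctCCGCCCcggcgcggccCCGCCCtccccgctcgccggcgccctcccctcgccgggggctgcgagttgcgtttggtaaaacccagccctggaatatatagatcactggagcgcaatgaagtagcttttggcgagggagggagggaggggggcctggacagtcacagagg
Papss2: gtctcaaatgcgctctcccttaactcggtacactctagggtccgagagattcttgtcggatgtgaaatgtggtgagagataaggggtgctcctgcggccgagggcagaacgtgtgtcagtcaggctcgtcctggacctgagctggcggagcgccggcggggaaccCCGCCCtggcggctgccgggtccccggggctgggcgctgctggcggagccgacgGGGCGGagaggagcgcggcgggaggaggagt

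The Chst11 window held 3 GC boxes and was 70.0% G or C, and the Papss2 window held 2 and was 67.6% G or C. Of the 38 genes, 30 had a RefSeq promoter entry. GGGCGG on either strand was found for 22 of the 30 genes, against 63.2% of 9843 tested genes with an entry. AACAAT, the core letters bound by SOX factors, was found for 2 of the 30, Extl2 and Papss2 (6.32% of tested genes). TATAAA was found for 1, Hs6st2, which was not itself tested (8.10% of tested genes). The AACAAT match of Papss2 lay before its other start, at chr19:32619755-32620004. That window is not printed and held 0 GC boxes at 43.2% G or C. These matches are descriptions of letters and not of bound sites.

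Across the set, the response to DMM tended to be lower in KO than in WT, but few genes passed the test. In the interaction test (response to DMM in KO minus response in WT) 1 of the 35 genes was called lower and 0 higher, against 5.24% of all 12538 genes called in either direction and 3.83% called lower. A count of 1 gene is near that background. At an unadjusted p under 0.05, 14 genes were lower and 1 higher (13.2% and 11.0% of all genes). DESeq2 called Chst11 lower (3.54% of all genes called in either direction) and limma called 0 (2.79% of all genes). The log2 difference was below 0 for 28 of the 35 genes, against 50.9% of all genes, with a median of -0.25, against -0.01 over all genes. Leaving aside Extl1, which passed the filter only through KO sham at 4 weeks, 27 of 34 were below 0 with a median of -0.23. Without WT sham at 4 weeks 5 members (Chst11, Has1, Ndst1, Papss2 and Xylt1), or 14.3%, were called lower, in a fit that called 15.8% of all genes and 8.08% lower. Which members were called changed with the library left out. Calls were fewer among members and among all genes without WT DMM at either week, KO sham at 2 weeks or KO DMM at 4 weeks. Over the fits that left out 1 library, the members' median was -0.32 to -0.23, against -0.02 to 0.02 over all genes.

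**Figure D2:**
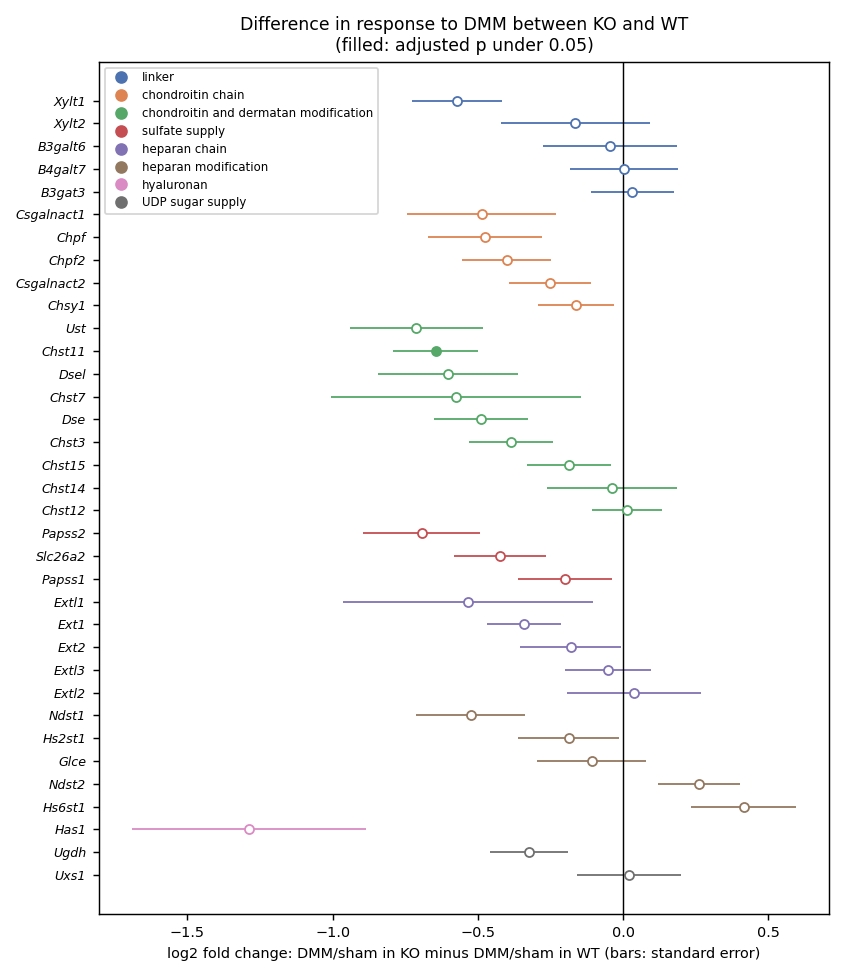
Log2 response to DMM in KO minus log2 response to DMM in WT for each of the 35 tested genes (x axis), grouped and coloured by role, with bars for the standard error of the fit and a filled point for an adjusted p under 0.05. Of the 35 points 28 lie below 0 and the filled one is Chst11 at -0.65.

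Grouped by role, the medians of the interaction were as follows. The 5 linker genes had a median of -0.04, the 5 tested chondroitin chain genes -0.40, the 9 chondroitin and dermatan modification genes -0.49 and the 3 sulfate supply genes -0.42. The 5 heparan chain genes had a median of -0.18 and the 5 tested heparan modification genes -0.11. The 2 UDP sugar genes had a median of -0.15, and Has1, the tested hyaluronan synthase, stood at -1.29. All 5 chondroitin chain genes and all 3 sulfate supply genes were below 0, as were 8 of the 9 chondroitin and dermatan modification genes, 4 of the 5 heparan chain genes and 3 each of the linker and heparan modification genes. No test compared the roles with each other.

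Among the linker genes, the one with the lowest difference was Xylt1, which with Xylt2 encodes the xylosyltransferases that start a chain on the core protein. Xylt1 was at 3.28 and 3.60 TPM in KO DMM at 2 and 4 weeks, 5.38 and 5.17 TPM in KO sham, 4.19 and 5.06 TPM in WT DMM, and 2.97 and 4.84 TPM in WT sham. Its interaction of -0.57 (SE 0.15) did not pass, with an adjusted p of 0.0568. Xylt1 was above Xylt2 in all 8 libraries, by 1.07 to 1.83 times in TPM, and Xylt2 had an interaction of -0.17 (SE 0.26).

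The later linker enzymes had values near 0 in the interaction test. B3gat3, the glucuronyltransferase that completes the linker, was the most abundant of the 5. It had 21.99 and 21.83 TPM in KO DMM, 21.9 and 26.7 TPM in KO sham, 22.3 and 30.1 TPM in WT DMM, and 20.1 and 27.7 TPM in WT sham at 2 and 4 weeks. B4galt7, which adds the first galactose, had 5.59 and 6.62 TPM in KO DMM, 5.98 and 8.41 TPM in KO sham, 6.21 and 7.66 TPM in WT DMM, and 4.58 and 8.86 TPM in WT sham. Both had interactions near 0, at 0.03 (SE 0.14) for B3gat3 and 0.00 (SE 0.19) for B4galt7, and B3galt6, which adds the other galactose, was at 1.96 to 3.37 TPM with -0.04 (SE 0.23).

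Among the chondroitin chain genes, the highest mRNA level was that of Csgalnact2, which encodes an N-acetylgalactosaminyltransferase that starts and extends the chain. Csgalnact2 was at 20.7 and 24.9 TPM in KO DMM at 2 and 4 weeks, 32.3 and 37.4 TPM in KO sham, 25.1 and 28.5 TPM in WT DMM, and 24.6 and 29.5 TPM in WT sham. KO sham was the highest of the 4 libraries at each week, on TPM and on TMM-scaled CPM. KO DMM was the lowest at each week on TPM, but on TMM-scaled CPM at 4 weeks it stood at 101.2, above 94.6 in WT DMM. DMM against sham gave -0.48 (SE 0.10, adjusted p = 0.0838) in KO and -0.23 (SE 0.10, adjusted p = 0.215) in WT. Its partner Csgalnact1 was at 1.31 to 3.36 TPM, only 0.0532 to 0.118 of the Csgalnact2 level in the same library.

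Chsy1, the polymerizing chondroitin synthase, was at 7.90 and 9.64 TPM in KO DMM, 7.66 and 11.7 TPM in KO sham, 8.44 and 12.2 TPM in WT DMM, and 5.97 and 10.7 TPM in WT sham. Its relative Chsy3 stayed at 0.42 to 0.89 TPM and was not tested, so that Chsy1 was 10.2 to 21.9 times higher. Of the polymerizing factors, Chpf2 at 5.51 to 14.9 TPM was above Chpf at 4.22 to 7.93 TPM in every library. Both had an unadjusted p under 0.05 in the interaction test, with -0.40 (SE 0.15, adjusted p = 0.143) for Chpf2 and -0.48 (SE 0.19, adjusted p = 0.166) for Chpf.

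The other chondroitin 4-O-sulfotransferase, Chst12, was far more abundant than Chst11. It had the highest mean TPM of all 38 genes, with 29.3 and 31.7 TPM in KO DMM at 2 and 4 weeks, 33.4 and 39.2 TPM in KO sham, 34.2 and 42.7 TPM in WT DMM, and 32.6 and 48.3 TPM in WT sham. Chst11 had 0.207 to 0.347 of the Chst12 level in the same library. The interaction of Chst12 was 0.01 (SE 0.12, adjusted p = 0.962), beside -0.65 (SE 0.15) for Chst11, and no test compared the pair. DMM against sham gave -0.20 (SE 0.09) in KO and -0.21 (SE 0.08) in WT for Chst12, at adjusted p of 0.402 and 0.180.

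For sulfate at the 6 position, Chst3 encodes the main chondroitin 6-O-sulfotransferase. Chst3 was at 6.98 and 5.35 TPM in KO DMM at 2 and 4 weeks, 7.60 and 6.20 TPM in KO sham, 7.66 and 7.77 TPM in WT DMM, and 4.83 and 5.97 TPM in WT sham. WT DMM was the highest of the 4 libraries at 4 weeks, whereas at 2 weeks it was highest on TPM and KO sham was highest on TMM-scaled CPM (53.0 in WT DMM, 55.3 in KO sham). Its interaction of -0.39 (SE 0.14, adjusted p = 0.133) did not pass. Chst7, a related enzyme, was at 0.69 to 1.65 TPM, and Chst3 was 4.71 to 8.65 times above it.

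The epimerases Dse and Dsel turn glucuronic into iduronic acid and so make dermatan sulfate. Dse, which was 1.72 to 3.69 times above Dsel, was at 4.15 and 4.19 TPM in KO DMM, 4.67 and 5.65 TPM in KO sham, 4.81 and 4.84 TPM in WT DMM, and 3.08 and 4.41 TPM in WT sham. Dsel was at 2.26 and 1.29 TPM in KO DMM, 2.06 and 1.53 TPM in KO sham, 2.79 and 1.79 TPM in WT DMM, and 1.34 and 1.56 TPM in WT sham. Their interactions were -0.49 (SE 0.16, adjusted p = 0.103) for Dse and -0.60 (SE 0.24, adjusted p = 0.157) for Dsel. Ust, the uronyl 2-O-sulfotransferase, had -0.71 (SE 0.23, adjusted p = 0.0957) at 1.39 to 2.57 TPM. Chst14, which sulfates dermatan, and Chst15, which adds a sulfate at the 6 position of a 4-sulfated residue, were at 2.40 to 3.56 and 5.48 to 10.2 TPM, with interactions of -0.04 (SE 0.22) and -0.19 (SE 0.14).

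Sulfate supply depends on PAPS synthases and on the sulfate transporter Slc26a2. Papss2, the synthase whose loss causes skeletal dysplasia in mice and humans, was at 5.14 and 3.93 TPM in KO DMM at 2 and 4 weeks, 8.14 and 6.76 TPM in KO sham, 5.67 and 6.71 TPM in WT DMM, and 4.23 and 6.13 TPM in WT sham. KO DMM lay below KO sham at both weeks and WT DMM above WT sham at both. The interaction of Papss2 was -0.69 (SE 0.20, adjusted p = 0.0698), and DMM against sham gave -0.62 (SE 0.14, adjusted p = 0.103) in KO and 0.07 (SE 0.14, adjusted p = 0.819) in WT.

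Papss1, the other synthase, was above Papss2 in all 8 libraries, with 9.27 and 10.2 TPM in KO DMM, 9.84 and 12.1 TPM in KO sham, 11.7 and 10.8 TPM in WT DMM, and 7.76 and 10.4 TPM in WT sham. The ratio of Papss2 to Papss1 was 0.385 to 0.827. The interaction of Papss1 was -0.20 (SE 0.16, adjusted p = 0.483). Slc26a2 was at 1.49 to 2.55 TPM with -0.42 (SE 0.16, adjusted p = 0.136).

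**Figure D3:**
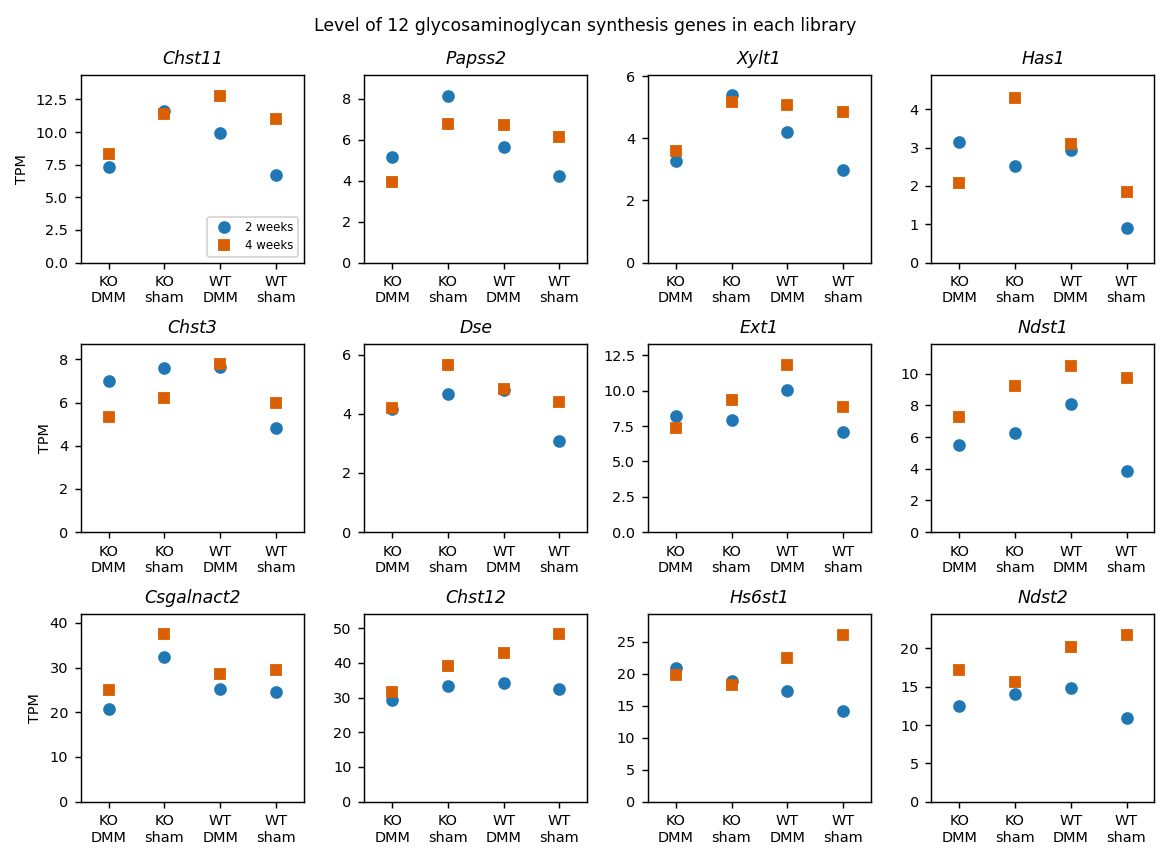
TPM of 12 genes (y axis of each panel, from 0) in KO DMM, KO sham, WT DMM and WT sham cartilage, with blue circles for 2 weeks and orange squares for 4 weeks, each point being 1 library. Chst11 (7.31 and 8.33 TPM in KO DMM), Papss2 and Xylt1 lie lower in KO DMM than in KO sham at both weeks, and Ndst2 reaches its highest value, 21.8 TPM, in WT sham at 4 weeks.

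Heparan sulfate is polymerized by a complex of Ext1 and Ext2. Ext2 was at 10.9 and 11.5 TPM in KO DMM at 2 and 4 weeks, 12.9 and 12.1 TPM in KO sham, 11.6 and 16.1 TPM in WT DMM, and 9.94 and 12.9 TPM in WT sham. Ext1 was at 8.24 and 7.37 TPM in KO DMM, 7.94 and 9.37 TPM in KO sham, 10.1 and 11.9 TPM in WT DMM, and 7.08 and 8.83 TPM in WT sham. The WT DMM library held the highest Ext1 value at each week. Ext1 had an interaction of -0.34 (SE 0.13, adjusted p = 0.137) and Ext2 one of -0.18 (SE 0.18, adjusted p = 0.569). Ext1 was 0.615 to 0.865 of Ext2 in the same library.

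Of the Ext-like genes, Extl3, which starts heparan sulfate chains, was at 4.24 to 8.20 TPM and Extl2 at 2.14 to 4.37 TPM, with interactions of -0.05 (SE 0.15) and 0.04 (SE 0.23). Extl1 was at 0.45 to 1.06 TPM and entered the tests only through the KO sham library at 4 weeks.

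The heparan modification genes held the highest positive differences of the set. Hs6st1, a heparan sulfate 6-O-sulfotransferase, was at 20.9 and 19.9 TPM in KO DMM at 2 and 4 weeks, 18.8 and 18.3 TPM in KO sham, 17.3 and 22.4 TPM in WT DMM, and 14.1 and 26.1 TPM in WT sham. Its interaction was 0.42 (SE 0.18, adjusted p = 0.189), and it passed, as a higher value, in the fit without WT sham at 2 weeks. On TPM the WT sham libraries of Hs6st1 were its lowest and its highest, but on TMM-scaled CPM the highest was KO DMM at 2 weeks (94.6) and the lowest KO sham at 4 weeks (67.9). Hs6st2 was at 0.00 to 0.15 TPM, with 8 counts at most in any library.

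Ndst1 and Ndst2 encode N-deacetylase/N-sulfotransferases, which make the first modification of the chain. Ndst2, the higher of them in all 8 libraries, was at 12.5 and 17.2 TPM in KO DMM at 2 and 4 weeks, 14.0 and 15.6 TPM in KO sham, 14.9 and 20.2 TPM in WT DMM, and 10.9 and 21.8 TPM in WT sham. Ndst1 was at 5.52 and 7.27 TPM in KO DMM, 6.23 and 9.20 TPM in KO sham, 8.08 and 10.5 TPM in WT DMM, and 3.86 and 9.72 TPM in WT sham. Their differences had opposite signs, at 0.26 (SE 0.14, adjusted p = 0.286) for Ndst2 and -0.52 (SE 0.19, adjusted p = 0.122) for Ndst1, and neither passed. Hs2st1, the 2-O-sulfotransferase, and Glce, the glucuronyl epimerase of heparan sulfate, were at 2.06 to 3.81 and 1.68 to 2.77 TPM, with -0.19 (SE 0.17) and -0.11 (SE 0.19).

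Hyaluronan synthases were expressed at low levels. Has1 was at 3.14 and 2.07 TPM in KO DMM at 2 and 4 weeks, 2.51 and 4.29 TPM in KO sham, 2.95 and 3.10 TPM in WT DMM, and 0.90 and 1.85 TPM in WT sham. The WT sham libraries were the lowest of all 8, and the 2 weeks of KO lay in opposite order between DMM and sham. Behind these values stood 40 to 122 counts per library. Has1 had the most extreme interaction of the set at -1.29 (SE 0.40, adjusted p = 0.0877), and KO against WT after sham gave 1.26 (SE 0.30, adjusted p = 0.0577). Has1 was called in that comparison without KO DMM at either week, without WT sham at 4 weeks and with no filter on low values. Has2 was at 0.33 and 0.41 TPM in KO DMM, 0.76 and 0.55 TPM in KO sham, 0.48 and 0.39 TPM in WT DMM, and 0.37 and 0.36 TPM in WT sham, below the filter in every library.

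The mRNA of the 2 UDP sugar genes was among the more abundant of the set by mean TPM. Ugdh, which makes UDP-glucuronic acid, was at 24.1 and 25.3 TPM in KO DMM at 2 and 4 weeks, 28.7 and 36.2 TPM in KO sham, 28.9 and 28.9 TPM in WT DMM, and 21.3 and 29.5 TPM in WT sham. Uxs1, which converts it into UDP-xylose for the first linker sugar, was at 12.9 and 16.6 TPM in KO DMM, 15.3 and 18.6 TPM in KO sham, 15.9 and 17.3 TPM in WT DMM, and 14.2 and 16.9 TPM in WT sham. Their interactions were -0.32 (SE 0.13, adjusted p = 0.168) and 0.02 (SE 0.18, adjusted p = 0.961).

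Considered within each genotype, the response to DMM of most of the 35 genes was below 0 in KO and above 0 in WT, but no gene passed in the edgeR fit of all 8 libraries. In KO, DMM against sham called 0 of the 35, against 0.112% of all genes, and 29 were below 0 (48.6% of all genes) with a median log2 fold change of -0.09 (0.01 over all genes). At an unadjusted p under 0.05, 9 were lower and 0 higher (6.44% and 5.20% of all genes). One of the 9 was Extl1, which had passed the filter only through KO sham, and without it 28 of 34 were below 0 and 8 lower. DESeq2 called Csgalnact2 lower and limma called 0. Over the fits that left out 1 library, the members' median in KO was -0.15 to -0.09, against -0.01 to 0.01 over all genes.

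In WT, DMM against sham called 0 of the 35, against 4.87% of all genes, and 9 were below 0 (51.1% of all genes) with a median of 0.14 (-0.01 over all genes). At an unadjusted p under 0.05, 8 were higher (Has1, Ext1, Chpf, Chst3, Dsel, Ndst1, Chpf2 and Dse) and 2 lower (Chst12 and Csgalnact2), beside 12.6% and 8.93% of all genes. DESeq2 called 0 (3.29% of all genes) and limma called Has1 higher (3.82% of all genes called). Members were also called in WT in the fits without KO DMM at either week or WT sham at 4 weeks. Those fits called more of all genes too. Over the fits that left out 1 library, the members' median in WT was 0.11 to 0.17, against -0.027 to -0.0035 over all genes.

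**Figure D4:**
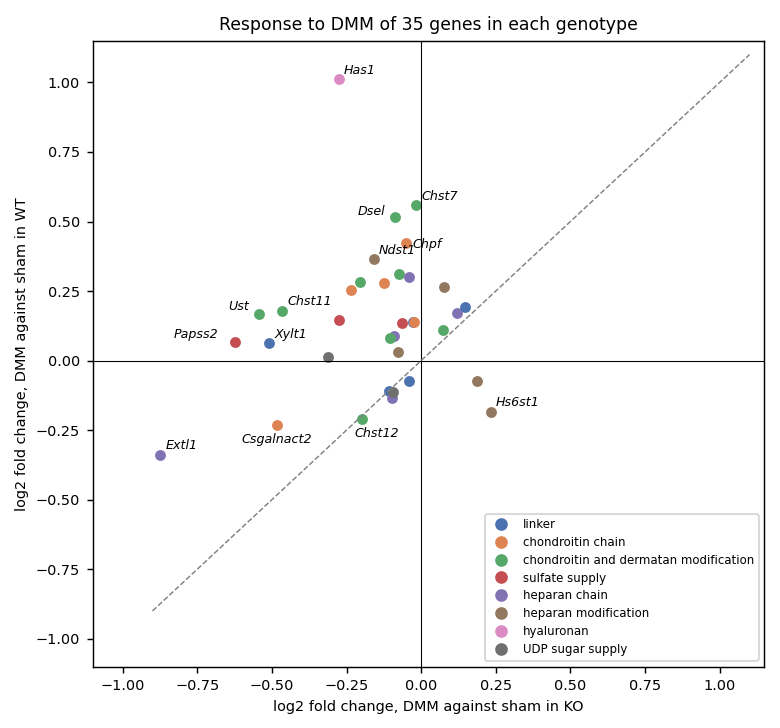
Log2 fold change of DMM against sham in KO (x axis) and in WT (y axis) for the 35 tested genes, coloured by role, with a dashed line where both are equal. In KO 29 genes lie below 0 and in WT 9 do, and no gene passed an adjusted p of 0.05 in either genotype.

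KO against WT was tested after each surgery. After DMM, 0 of the 35 genes were called, against 0.0479% of all genes, with 27 below 0 (51.1% of all genes) and a median of -0.08. At an unadjusted p under 0.05, 5 were lower (Chst11, Chpf2, Ext1, Ndst1 and Chst12) and 0 higher, beside 6.39% and 6.29% of all genes. Limma called 0, and DESeq2 gave no adjusted p to any of the 35 in this comparison and so says nothing here. After sham surgery, 0 were called, against 2.18% of all genes, and 5 were below 0 (49.6% of all genes) and the median was 0.14 (0.00 over all genes). Leaving aside Extl1, which passed the filter only through KO sham, 5 of 34 were below 0 with a median of 0.12. There 11 genes were higher and 1 lower at an unadjusted p under 0.05 (11.6% and 7.12% of all genes), led by Has1, Dse at 0.47 (SE 0.12, adjusted p = 0.0667), Ust at 0.61 (SE 0.16, adjusted p = 0.0846) and Xylt1 at 0.37 (SE 0.11, adjusted p = 0.107). Limma called 0, as did DESeq2, which gave 3 of the 35 no adjusted p. Over the fits that left out 1 library, the members' median after sham surgery was 0.12 to 0.21, against -0.013 to 0.010 over all genes.

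Time after surgery gave the most calls. At 4 against 2 weeks 3 of the 35 genes were higher, against 11.2% of all genes, and 3 were lower, against 10.9%, so that 17.1% of the members were called, against 22.1% of all genes. Higher at 4 weeks were Ndst1 at a log2 fold change of 0.35 (SE 0.09, adjusted p = 0.0223), Ndst2 at 0.28 (SE 0.07, adjusted p = 0.0183) and Chsy1 at 0.26 (SE 0.07, adjusted p = 0.0165). Chsy1, in TMM-scaled CPM, was at 43.2 to 49.3 at 4 weeks and 35.9 to 40.6 at 2 weeks, and Ndst2 was at 37.4 to 48.0 at 4 weeks and 34.1 to 36.6 at 2 weeks. Both were picked by the test on these same values, so the ranges add no support to it.

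Lower at 4 weeks were Dsel at -0.52 (SE 0.12, adjusted p = 0.0121), Chst3 at -0.39 (SE 0.07, adjusted p = 0.00444) and Ext1 at -0.29 (SE 0.06, adjusted p = 0.0105). Chst3 was at 35.6 to 44.4 CPM at 4 weeks and 42.8 to 55.3 CPM at 2 weeks, and the single overlap was WT DMM at 4 weeks above WT sham at 2 weeks. On log2(TPM + 1) with limma, the median of all genes lay 0.23 higher at 4 weeks. There 8 members were called higher and 0 lower, or 22.9%, against 34.6% of all genes called in either direction. Ext1 turned to 0.14, and Chst3 at -0.08 and Dsel at -0.27 no longer passed. The mean fragment length that the tables imply was 146 to 153 bases at 4 weeks and 173 to 177 bases at 2 weeks, and its part in these differences was not tested. Markers of other cells moved between the weeks too, with 6 of 6 megakaryocyte markers higher at 4 weeks (median 1.89) and 8 of 8 B cell (median -0.54), 9 of 17 chondrocyte and 8 of 13 fibroblast markers lower, and their part was not tested either. Leaving out WT DMM of either week lost Chsy1, Dsel and Ext1, leaving out KO sham of either week lost Chsy1 and Ndst1, and leaving out WT sham or KO DMM of either week lost Ndst2. Chst3 was called in all 8 of these fits, and DESeq2 called Ndst1 and Chst3 alone.

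The methods of the study rank genes by DIF, the log2(DMM/sham) ratio of TPM in KO minus that in WT at each week, and select those with a ratio above 0 in WT, below 0 in KO and a DIF under the lower quartile at both weeks. With 1 library per ratio there is no test. The median DIF of the 35 genes was -0.67 at 2 weeks, where that of all genes was -0.41, and -0.47 at 4 weeks, where that of all genes was -0.22. It was below 0 for 35 of the 35 genes at 2 weeks (82.6% of all genes) and for 32 at 4 weeks (75.0%). On TMM-scaled CPM, where the median of all genes was -0.01 and -0.02, the members' median was -0.29 at 2 weeks with 27 below 0 and -0.24 at 4 weeks with 28 below 0. Replacing a library by that of the other week moved the median of the members and of all genes. At 4 weeks the members' median was -0.073 with WT DMM replaced (0.064 over all genes) and -1.08 with WT sham replaced (-0.80 over all genes). At 2 weeks it was -0.22 with WT sham replaced (0.18 over all genes).

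Under those criteria 8 of the 35 genes, or 22.9%, were selected at both weeks on TPM, against 10.1% of all genes. They were Chpf2, Chst11, Chst3, Dse, Papss2, Slc26a2, Ust and Xylt1. On TMM-scaled CPM 6 of 35 (17.1%) were selected, against 8.2% of all genes, and 5 were on both lists, namely Chst11, Chst3, Dse, Papss2 and Slc26a2. The DIF of Chst11 was -1.23 (counting SE 0.10) at 2 weeks and -0.67 (counting SE 0.10) at 4 weeks, and that of Papss2 was -1.09 (counting SE 0.15) and -0.91 (counting SE 0.16). Counting errors do not include the difference between animals or libraries.

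Related lists were read in the same interaction test. Of 13 tested genes of other glycosaminoglycan assembly steps 0 were called, with 9 below 0 and a median of -0.10. Of 18 genes of glycosaminoglycan degradation 2 were lower, the arylsulfatase Arsb at -0.91 (SE 0.17, adjusted p = 0.0196) and the heparan 6-O-endosulfatase Sulf1 at -0.997 (SE 0.18, adjusted p = 0.0196), and the median was -0.35. Of 22 tested genes of the list of proteoglycan core proteins, 9 were lower and 0 higher, and 21 were below 0 with a median of -0.71. The 9 were the small leucine-rich proteins Bgn, Fmod and Lum, the basement membrane cores Hspg2 and Col18a1, the syndecans Sdc2 and Sdc3, and Cspg4 and Vcan. Lum had the most extreme of these called values, at -1.23 (SE 0.18, adjusted p = 0.0086). No test compared the lists with the synthesis genes.

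Cell type markers moved in the same test. Called lower were 3 of 17 chondrocyte, 8 of 13 fibroblast, 6 of 12 osteoblast and osteocyte, 1 of 6 osteoclast and 5 of 9 endothelial markers, and called higher were 2 of 10 erythroid and 4 of 6 megakaryocyte markers. The summed share of chondrocyte markers was 0.146% and 0.144% of TPM in KO DMM at 2 and 4 weeks, 0.472% and 0.243% in KO sham, 0.160% and 0.187% in WT DMM, and 0.310% and 0.202% in WT sham. That of fibroblast markers was 0.128% and 0.0685% in KO DMM, 0.0989% and 0.0827% in KO sham, 0.165% and 0.141% in WT DMM, and 0.0482% and 0.0548% in WT sham. The sums are carried by a few abundant genes, and for chondrocyte markers in WT at 4 weeks most single genes went against the sum. Of the 18 chondrocyte markers 2 and 0 had a higher TPM after DMM in KO at 2 and 4 weeks, and 5 and 13 in WT. Of the 13 fibroblast markers 8 and 2 were higher after DMM in KO and 13 and 11 in WT. Of all tested genes, 55.8% and 75.5% had a lower TPM after DMM in KO at 2 and 4 weeks, and 14.2% and 40.8% in WT. In the test of DMM against sham in WT 9 of 13 fibroblast, 9 of 9 endothelial and 5 of 6 osteoclast markers were called higher, and in KO against WT after sham 4 fibroblast and 3 chondrocyte markers were higher and 4 of 6 megakaryocyte markers lower. Their part in the values of the synthesis genes was not tested.

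The spread of the 35 genes over the libraries was like that of other genes. The highest library was a median of 1.41 times the lowest on TMM-scaled CPM, and 1.41 times over all tested genes. On TPM the ratio was 1.85, against 1.77 over all genes. The narrowest on TMM-scaled CPM differed by 1.14 times and the widest, Has1, by 3.37 times.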

How the data were processed

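RNA of 8 pooled cartilage libraries was sequenced by the authors in paired 101-base reads from stranded mRNA libraries, trimmed, aligned to GRCm38 with STAR 2.6.0a and quantified with RSEM 1.2.17. The submitters' notes also name FastQC 0.11.8 and a human build, whereas all identifiers are those of mouse. The authors deposited expected counts, which RSEM estimates and which need not be whole, with TPM and FPKM (not used here). Both TPM and counts are at gene level.

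Of 52636 identifiers, 52403 matched GENCODE M21. Expected counts were rounded and tested with the quasi-likelihood test of edgeR 4.0.16 (TMM factors, 4 genotype by surgery levels plus week, 3 residual degrees of freedom, Benjamini-Hochberg adjustment over 12538 genes, threshold 0.05, two-sided). Of the procedures, only the edgeR fit was run on simulated data, for the interaction, DMM against sham in WT and 4 against 2 weeks. The simulated counts had the same spread for every gene and no shift in hemoglobin share. They therefore do not show how the tests behave on these libraries. Alternatives used DESeq2 1.42.0, limma 3.58.1 on log2(TPM + 1), other factors, other filters, no week term and omission of each library. R 4.3.3, Python 3.11.15, pandas 2.3.3 and numpy 2.4.6 were used. Promoters came from RefSeq on GRCm38.p6.

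The members and lists were chosen with earlier results of these data known. Named with all 8 values were members called in any test and the 2 highest mean TPM of each role, plus Xylt1 and Dse, chosen after their values were seen. Protein sequences were not used here.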

Additional observations from a re-analysis of the deposited data

Results flagged for a closer look

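The response of Chst11 to DMM differed between KO and WT cartilage in the edgeR interaction test, at -0.65 on the log2 scale (SE 0.15, adjusted p = 0.0326). Its response was -0.47 (SE 0.10) in KO and 0.18 (SE 0.10) in WT. The DIF was -1.23 at 2 weeks and -0.67 at 4 weeks. These come from the libraries that the test used and add no support to it. On TPM the DIF was below 0 for 82.6% and 75.0% of all genes at 2 and 4 weeks. The call was not stable to single libraries and was lost with limma on log2(TPM + 1) and without the week term. The value stayed below 0 in all 15 alternatives. No group had 4 libraries, so single libraries were not examined for distance from the rest.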

How the results depend on the processing

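The interaction test called 1 member. It called 0 with limma on log2(TPM + 1), which called 2.79% of all genes, and 0 without the week term, which called 0 of all genes. With no filter on low values it called 6 (Chst11, Has1, Ndst1, Papss2 and Xylt1 lower, Hs6st1 higher). When single libraries were left out, the members' median in the interaction test was -0.32 to -0.23, against -0.02 to 0.02 over all genes. Without the filter 26836 genes were tested, and the interaction test called 15.8% of members, against 6.37% of all genes. DMM against sham then called 5 members in KO (13.2%, against 2.02% of all genes) and 2 in WT (5.26%, against 5.33%). KO against WT after sham called 5 (13.2%, against 3.70%). Each of these 3 comparisons had called 0 with the filter. DESeq2 called 1 for DMM against sham in KO and 2 for 4 against 2 weeks (6 with edgeR), and limma called 1 for DMM against sham in WT. Leaving out single libraries changed the calls among members and among all genes. The members' median was then -0.15 to -0.09 for DMM against sham in KO and 0.11 to 0.17 in WT. It was 0.12 to 0.21 for KO against WT after sham and -0.04 to 0.03 for the weeks. KO against WT after DMM called 0 under every alternative that gave the members an adjusted p, which DESeq2 did not. Ext1 at 4 against 2 weeks reversed to 0.14 with limma on log2(TPM + 1). The median DIF was -0.29 at 2 weeks on TMM-scaled CPM, and replacing single libraries by the other week gave -0.95 to -0.22 at 2 weeks and -1.08 to -0.073 at 4 weeks. Over all genes these replacements gave -0.70 to 0.18 at 2 weeks and -0.80 to 0.064 at 4 weeks. Members selected at both weeks numbered 6 on TMM-scaled CPM, an alternative chosen after seeing the data, and 8 on TPM. The cause of these shifts was not tested. The low-count genes Chst7, Extl1 and Has1 had standard errors of 0.40 to 0.43 in the interaction test, the widest of the members. No paired analysis was possible because each condition had 1 library, beyond the week term that the fit already holds, without which the interaction test called 0 of 12538 genes in place of 657.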
